A study of Mus musculus with 21 samples.

Results

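Hox genes of uterine patterning were followed here in whole uteri of young and old mice: Hoxa9, Hoxa10, Hoxa11, Hoxc9, Hoxc10, Hoxd9, Hoxd10 and Hoxd11, with Emx2 and Meis1, a pair of homeobox genes that act beside them. They were chosen by name, and 8 of these 10 genes stood among the 12791 genes listed with values. Hoxc9 and Hoxc10 were not among the genes listed and were not analysed here. A gene is listed only where every library had at least 10 reads of it, so none of the 8 was silent in any library.

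Hox genes encode homeodomain transcription factors and lie in clusters, ordered along the DNA as they are used along the body axis. In the embryonic Müllerian duct of the mouse, Hoxa9 marks the future oviduct, Hoxa10 the uterus and Hoxa11 the lower uterus and cervix. Hoxa10 and Hoxa11 stay active in the adult uterus, respond to estrogen and progesterone, and are needed there for implantation and decidualization. Emx2, known in human endometrium as a gene that HOXA10 represses, is needed for the urogenital tract to form. Meis1 encodes a partner protein that binds DNA together with Hox and Pbx proteins.

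The mice were wild type C57BL/6J, an inbred laboratory strain, of 3 age groups, and the study asked which genes go with endometrial ageing. Aged mice are described here beside mice of 8 and 5 weeks. All of them, the young mice included, had received pregnant mare serum gonadotropin (5 or 7.5 units) 48 hours before the uterus was taken. This hormone drives ovarian follicles to grow. Which dose each mouse had is not stated, and it may differ between ages or sets. The RNA came from slices of the whole organ, so muscle, stroma and epithelium were measured together, and fewer cells of a type and less RNA per cell cannot be told apart. Values were taken for 6 aged, 7 8-week and 7 5-week uteri, and whether each is a separate animal is not stated, so p-values measure the spread between these samples only.

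Each age group held libraries of 2 sets. Replicates 1 and 2 form the earlier set, with aged mice of 60 to 75 weeks. Replicates from 3 upward form the later set, with aged mice of 79 weeks. The sets may differ in instrument, RNA kit, gonadotropin dose and, among aged mice, age, and these cannot be told apart. Library totals were 19100690 to 30689439 reads in 14 later and 12204573 to 14448283 reads in 6 earlier libraries. Of 20 tables with values, 15 carried the name of another sample in their column header, of another age group in 2 cases and of the other set in 2. Values were assigned to samples by these headers, and by file in an alternative fit. Of the marker lists for the tissue, 10 of 10 stromal, 10 of 10 smooth muscle and 11 of 11 epithelial genes were listed. The lists for neighbouring organs had 1 of 8 cervicovaginal, 2 of 5 oviduct and 3 of 6 ovary genes listed. Some of these listed genes differed between ages and between sets, as given below with the cell type markers.

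In the mouse genome build GRCm38, Hoxa9 (chr6:52223100-52231089), Hoxa10 (chr6:52231197-52240854) and Hoxa11 (chr6:52242106-52245810) lie side by side on the minus strand. Hoxd11 (chr2:74679557-74687016), Hoxd10 (chr2:74691924-74695105) and Hoxd9 (chr2:74697727-74700208) lie together on the plus strand. Emx2 (chr19:59458372-59465357) is on the plus strand and Meis1 (chr11:18879817-19018985) on the minus strand. The library kit kept no strand. Of the exon bases of Hoxa11, 35.0% also belong to Hoxa11os on the other strand, so reads of that pair cannot be fully parted. The same holds for 8.79% of Emx2, shared with Emx2os, and 18.3% of Meis1, shared with transcripts that are not listed.

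All 8 genes had a promoter window in RefSeq (GRCm38.p6), from 250 bases before a transcript start to 50 after it. Those of Hoxa10 and Hoxd10 are shown because these genes, on different chromosomes, had the most similar levels across libraries. That of Meis1 is shown because Meis1 alone of the 8 passed the test between ages, a result that depended on single libraries. That of Hoxd11 is shown because it alone held a composite Pbx-Hox motif. Capitals mark matches, on either strand, to the core motif of posterior Hox proteins (TTTAT), the composite motif TGATTNAT or the Meis motif TGACAG. For Hoxa10 the window at the internal start (chr6:52234890-52235189) is printed, for Hoxd10 chr2:74691641-74691940, for Hoxd11 the window at the second of its starts (chr2:74682073-74682372) and for Meis1 chr11:19018920-19019219, each on the strand of its gene, 5′ to 3′.
Hoxa10: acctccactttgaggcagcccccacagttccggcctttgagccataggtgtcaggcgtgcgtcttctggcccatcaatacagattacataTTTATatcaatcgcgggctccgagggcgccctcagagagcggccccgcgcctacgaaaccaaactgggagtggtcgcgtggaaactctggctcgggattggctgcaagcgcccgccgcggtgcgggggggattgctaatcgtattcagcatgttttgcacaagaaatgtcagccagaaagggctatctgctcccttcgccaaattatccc
Hoxd10: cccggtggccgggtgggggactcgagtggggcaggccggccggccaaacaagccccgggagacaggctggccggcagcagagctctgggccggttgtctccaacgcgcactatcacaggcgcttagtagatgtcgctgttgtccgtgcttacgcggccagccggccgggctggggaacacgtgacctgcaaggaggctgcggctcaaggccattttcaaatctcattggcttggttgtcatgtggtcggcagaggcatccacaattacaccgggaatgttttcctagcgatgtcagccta
Hoxd11: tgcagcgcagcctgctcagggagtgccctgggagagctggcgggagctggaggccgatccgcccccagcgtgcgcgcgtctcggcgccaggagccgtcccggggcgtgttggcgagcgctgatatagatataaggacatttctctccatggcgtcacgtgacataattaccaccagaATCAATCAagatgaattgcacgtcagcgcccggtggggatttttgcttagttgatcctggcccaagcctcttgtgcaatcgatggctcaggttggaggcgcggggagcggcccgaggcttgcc
Meis1: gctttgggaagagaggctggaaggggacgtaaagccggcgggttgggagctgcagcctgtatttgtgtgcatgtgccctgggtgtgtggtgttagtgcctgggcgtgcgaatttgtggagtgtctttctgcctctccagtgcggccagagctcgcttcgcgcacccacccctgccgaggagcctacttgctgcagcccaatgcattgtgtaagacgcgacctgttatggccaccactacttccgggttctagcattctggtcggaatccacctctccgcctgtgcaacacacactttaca

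The Hoxa10 window holds TTTAT 160 bases before the start, within 21 CpG sites and a GC content of 57.3%. The Hoxd11 window holds ATCAATCA, the composite motif on the other strand, 73 bases before the start. The Hoxd10 and Meis1 windows hold none of these letters. Of 32851 windows of 300 bases, 40.0% held TTTAT, 3.22% the composite motif, 19.2% TGACAG and 0.0700% the full estrogen response element, GGTCA and TGACC with 3 bases between. The last was in none of the windows of the 8 genes, which says nothing of estrogen binding elsewhere. None of the motifs overlapped another in a printed window.

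Hoxa10 RNA was the most abundant of the 8 per length. Averaged over all 20 libraries and divided by exon length, it stood at 75.9 ± 45.7 CPM per kb (SD), where CPM are reads scaled to the library total. Hoxa11 (33.0 ± 14.3), Emx2 (27.6 ± 14.7), Hoxd10 (24.9 ± 16.8) and Hoxd9 (21.4 ± 11.9 CPM per kb) followed, and neighbours among these differed by less than their SD. Hoxa9 (7.66 ± 4.89) and Meis1 (7.59 ± 3.47) were alike, and Hoxd11 was lowest at 2.85 ± 1.10 CPM per kb. In CPM without length, Hoxa10 exceeded 95.4% of all listed genes and Hoxd11 20.6%.

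The order was not the same in every library. Hoxa10 was the highest of the 8 per kb in 13 of 14 libraries of the later set, and Emx2 was the highest in the remaining one, aged replicate 7. Emx2 was the highest in 6 of 6 libraries of the earlier set. There it averaged 44.2 ± 7.28 CPM per kb, against 23.7 ± 7.13 for Hoxa10. The later set had 20.4 ± 10.6 for Emx2 and 98.3 ± 35.1 CPM per kb for Hoxa10.

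**Figure D1:**
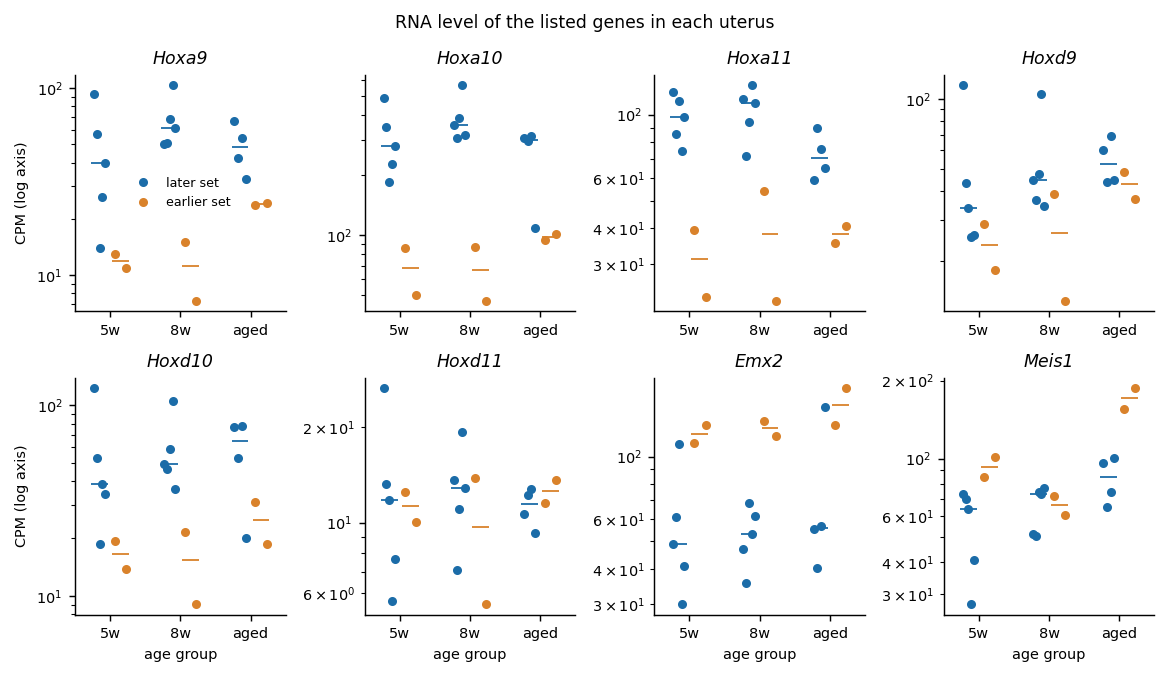
RNA level in CPM, on log axes, of the 8 listed genes in each uterus, by age group, with the later set (blue) left of the earlier set (orange) and short lines at the median. Meis1 reached 156 and 186 CPM in the aged uteri of the earlier set, and the blue and orange points part most for Hoxa10.

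Aged uteri differed from 8-week uteri in 1 of the 8 genes. Meis1, the Hox partner, was higher, and none of the 6 Hox genes passed the test, nor did Emx2. Over all genes 17% were called in this comparison, with 1099 higher and 1080 lower at an adjusted p under 0.05 (limma on log2(CPM + 1) with the set as covariate, Benjamini-Hochberg adjusted over all 12791 genes). A count of 1 in 8 is near that background. Against 5-week uteri it was again Meis1 alone, while 21.9% of all genes were called, 1610 higher and 1189 lower, or 1505 and 1693 with TMM scaling. The aged libraries serve in both comparisons, so these are not independent.

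Meis1 RNA in the later set was 96.0, 65.3, 74.5 and 101 CPM in aged uteri, against 51.1, 50.3, 74.3, 73.0 and 77.3 CPM in 8-week uteri. At 5 weeks the later set had 73.1, 70.1, 64.0, 27.6 and 40.6 CPM. In the earlier set it was 156 and 186 CPM in aged, 71.9 and 60.6 CPM in 8-week and 84.6 and 101 CPM in 5-week uteri. In the earlier set the aged libraries stood above all younger ones, as they did for 36.8% of all genes against 8-week and 38.7% against 5-week uteri. Of the later aged libraries 2 of 4 stood above every later 8-week one and 3 of 4 above every later 5-week one.

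The Meis1 difference was 0.67 ± 0.23 (log2, SE) between aged and 8-week uteri, a ratio of 1.59 with a 95% interval from 1.14 to 2.21 (limma, adjusted p = 0.0490). Between aged and 5-week uteri it was 0.75 ± 0.23, a ratio of 1.68 from 1.21 to 2.33 (adjusted p = 0.0243). The later set alone gave 0.37 (adjusted p = 0.585) and 0.67 (adjusted p = 0.186), and in the earlier set alone 1.35 (adjusted p = 0.00970) and 0.87 (adjusted p = 0.0286). The difference between the sets in the aged against 8-week change was -0.99 ± 0.46 and was not called (limma, adjusted p = 0.333). No such set difference was called for any of the 8 genes, nor for more than 0.0235% of all genes against 8-week and 0% against 5-week uteri. The call against 8-week uteri was lost in 12 of 20 fits that each left out 1 library, with adjusted p from 0.0214 to 0.127. It was lost without any of 5w replicates 1, 2, 4 and 7, 8w replicates 1 to 4, or aged replicates 1, 2, 4 and 7. It was also lost with a pseudocount of 0.1 CPM (adjusted p = 0.0509), without the set term (0.140) and with columns attached by file (0.242). The call against 5-week uteri was lost without aged replicate 1 (adjusted p = 0.0541), aged replicate 2 (0.0654) or 5w replicate 7 (0.0553), without the set term (0.0810) and with columns attached by file (0.0526).

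Hoxa10, the uterine selector gene, did not differ with age beyond the spread between libraries. Later aged uteri had 308, 296, 315 and 108 CPM, against 357, 309, 389, 567 and 317 CPM in later 8-week uteri and 491, 349, 185, 228 and 280 CPM in later 5-week uteri. The earlier set had 94.3 and 101 CPM in aged, 86.8 and 46.7 CPM in 8-week, and 85.9 and 49.9 CPM in 5-week uteri. The sets went in opposite directions. Of the later aged libraries 3 of 4 lay below every later 8-week one, the nearest at 308 against 309 CPM. Both earlier aged libraries lay above every earlier 8-week one, as for 36.8% of all genes. The fitted difference from 8-week uteri was -0.27 ± 0.30 (interval -0.89 to 0.34, adjusted p = 0.558, limma), with -0.68 in the later and 0.61 in the earlier set. The test of that difference between sets gave -1.29 ± 0.60 (adjusted p = 0.339). Without aged replicate 7, the low library, the difference from 8-week uteri was 0.01. The difference from 5-week uteri was -0.01 ± 0.30 (interval -0.63 to 0.61).

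Hoxa11, needed with Hoxa10 for a uterus that can bear embryos, had 59.2, 89.5, 75.7 and 65.3 CPM in later aged uteri, against 71.8 to 127 CPM in later 8-week uteri and 74.5 to 120 CPM in later 5-week uteri. The earlier aged uteri had 35.4 and 40.8 CPM, within the range of 22.4 to 53.9 CPM of the earlier 8-week ones. The groups overlapped, and the differences were -0.30 ± 0.21 from 8-week and -0.19 ± 0.21 from 5-week uteri (adjusted p = 0.345 and 0.541, limma). Their intervals reached from -0.73 to 0.14 and from -0.63 to 0.25. Hoxa11os, its antisense partner, gave -0.33 ± 0.27 and -0.27 ± 0.27.

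Hoxa9, which patterns the future oviduct, averaged 40.6 ± 17.2 CPM in aged (n = 6), 51.0 ± 32.6 CPM in 8-week (n = 7) and 36.3 ± 30.3 CPM in 5-week uteri (n = 7). Its difference from 8-week uteri was 0.04 ± 0.35, with -0.44 in the later and 1.12 in the earlier set. The set difference of -1.56 ± 0.72 was not called (limma, adjusted p = 0.334). From 5-week uteri it differed by 0.53 ± 0.35 (adjusted p = 0.293).

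The 3 Hoxd genes, which share the posterior identity of the Hoxa genes, gave no call with age. Hoxd9 averaged 50.6 ± 12.0 CPM in aged, 45.8 ± 28.1 CPM in 8-week and 41.4 ± 33.1 CPM in 5-week uteri. The differences of aged uteri were 0.35 ± 0.33 from 8-week and 0.54 ± 0.33 from 5-week uteri (limma, adjusted p = 0.498 and 0.254). Without 5w replicate 3, its highest 5-week library, Hoxd9 was called higher against 5-week uteri (0.79, adjusted p = 0.0492). Hoxd10 averaged 46.1 ± 26.8 CPM in aged, 46.6 ± 30.7 CPM in 8-week and 42.9 ± 37.5 CPM in 5-week uteri. Its differences were 0.13 ± 0.38 from 8-week and 0.31 ± 0.38 from 5-week uteri. Hoxd11 averaged 11.7 ± 1.54, 11.9 ± 4.55 and 12.5 ± 6.71 CPM in these groups, with differences of 0.06 ± 0.28 and 0.04 ± 0.28.

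Emx2 averaged 101 ± 57.1 CPM in aged, 74.0 ± 37.2 CPM in 8-week and 76.1 ± 40.0 CPM in 5-week uteri. Later aged uteri had 55.5, 40.3, 56.5 and 150 CPM, against 35.7 to 68.2 CPM in later 8-week uteri. Earlier aged uteri had 129 and 174 CPM, against 133 and 119 CPM in earlier 8-week uteri. The ranges overlapped, with a difference of 0.32 ± 0.28 from 8-week and 0.32 ± 0.28 from 5-week uteri (limma, adjusted p = 0.458 and 0.435). Without aged replicate 7, the later set gave -0.05 and -0.07.

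For the 7 genes not called, the intervals of the difference between aged and 8-week uteri reached from -0.89 to 1.05 in all. Differences close to 2-fold thus lie within some of these intervals, and the missing calls do not show equal levels.

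**Figure D2:**
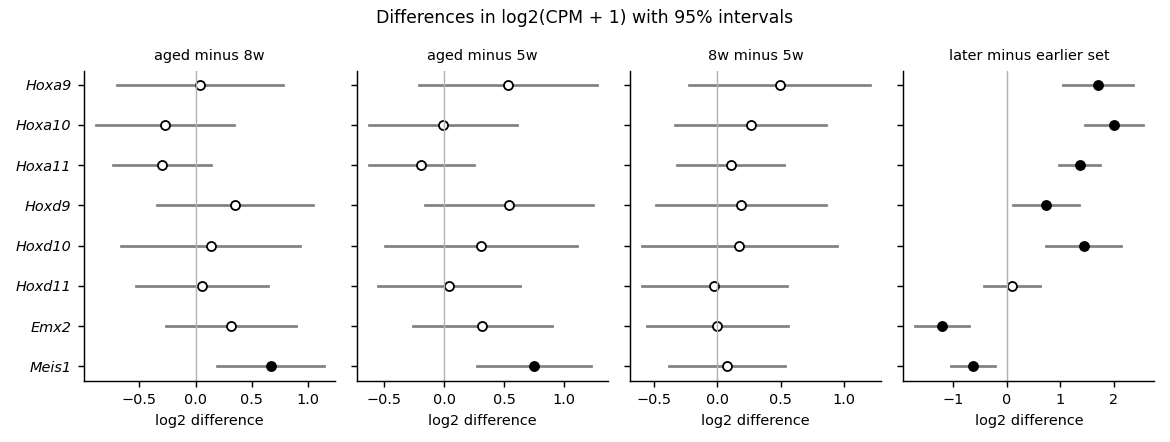
Differences in log2(CPM + 1) for the 8 genes in 4 comparisons, with points for the fitted difference, lines for the 95% interval and filled points for an adjusted p under 0.05. Meis1 is the filled point in both comparisons of aged uteri, none is filled between 8 and 5 weeks, and 7 of 8 are filled between the sets.

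Between 8-week and 5-week uteri none of the 8 genes was called. No gene of all 12791 was called either, so 0% were called (limma, and voom weights also gave 0). An unadjusted p under 0.05 was found for 135 genes (1.06%). That share is below the 0.05 of evenly spread p-values, for a reason not tested, so it does not show that the ages are alike. The widest difference among the 8 was that of Hoxa9, at 0.49 ± 0.34 (interval -0.22 to 1.20). Those of the others lay between -0.02 for Hoxd11 and 0.26 for Hoxa10. Emx2 was 0.00 ± 0.27 and Meis1 0.08 ± 0.22.

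Hox genes from the anterior and middle parts of the clusters were higher in aged uteri in some cases. Of 13 other Hox genes listed, which run from Hoxb2 to Hoxb9 in paralogue number, 3 were higher in aged than in 8-week uteri and none lower, while 8.59% of all genes were higher. The summed level of the 13 genes was 683 CPM in aged replicate 7, against 202 CPM in the lowest later aged library and at most 370 CPM in any young one. Their median difference from 8-week uteri was 0.46, against 0.10 over the 8 genes and 0.05 over all genes. Against 5-week uteri 5 of 13 were higher and none lower (12.6% of all genes higher), with a median of 0.48, against 0.31 and 0.09. These counts describe the lists, and whether the 13 genes differ from the 8 was not tested.

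Hoxc6, a gene of the thoracic region, showed the widest of these differences. It had 18.3 and 24.7 CPM in earlier and 32.3, 10.3, 14.6 and 16.4 CPM in later aged uteri, against 1.53 to 20.3 CPM in 8-week and 1.32 to 11.2 CPM in 5-week uteri. The differences were 1.30 ± 0.40 and 1.66 ± 0.40 (limma, adjusted p = 0.0305 and 0.00619). Hoxa7, the neighbour of Hoxa9 in its cluster, had 7.98 and 9.73 CPM in earlier and 7.43, 3.17, 2.67 and 5.57 CPM in later aged uteri, against 1.01 to 4.35 CPM in 8-week and 0.930 to 3.33 CPM in 5-week uteri. It differed by 0.97 ± 0.28 and 1.21 ± 0.28 (adjusted p = 0.0252 and 0.00549). Hoxb3, used in the hindbrain and neck region of embryos, had 2.48 to 14.2 CPM in aged, 1.44 to 5.15 CPM in 8-week and 0.780 to 6.13 CPM in 5-week uteri. It differed by 0.94 ± 0.28 and 0.84 ± 0.28 (adjusted p = 0.0283 and 0.0374).

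Hoxb5 (0.81 ± 0.29) and Hoxa3 (0.82 ± 0.29) were also higher against 5-week uteri (limma, adjusted p = 0.0486 and 0.0479), Hoxa3 being named after its value was seen. These genes are low, so the pseudocount of 1 CPM understates their ratios. Antisense transcripts share 52.9% of the exon bases of Hoxb3 and 20.4% of those of Hoxa7, and their reads cannot be told apart. None of Hoxc6, Hoxa7 and Hoxb3 was called against either young group in the later set alone. Their later differences from 8-week uteri were 0.76, 0.57 and 0.78, and their earlier ones 2.48, 1.84 and 1.28. Of the 20 fits that each left out 1 library, the call against 8-week uteri was lost in 6 for Hoxc6, 6 for Hoxa7 and 7 for Hoxb3, among them those without aged replicate 1, aged replicate 2, 8w replicate 2 or 8w replicate 3. Hoxc6 also lost it without aged replicate 4 or 8w replicate 7, Hoxa7 without aged replicate 4 or 8w replicate 1, and Hoxb3 without aged replicate 7, 8w replicate 1 or 8w replicate 5. Against 5-week uteri 0 were lost for Hoxc6 and Hoxa7, 8 for Hoxb3, 16 for Hoxb5 and 12 for Hoxa3, with adjusted p up to 0.0956, 0.101 and 0.117 for these 3.

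**Figure D3:**
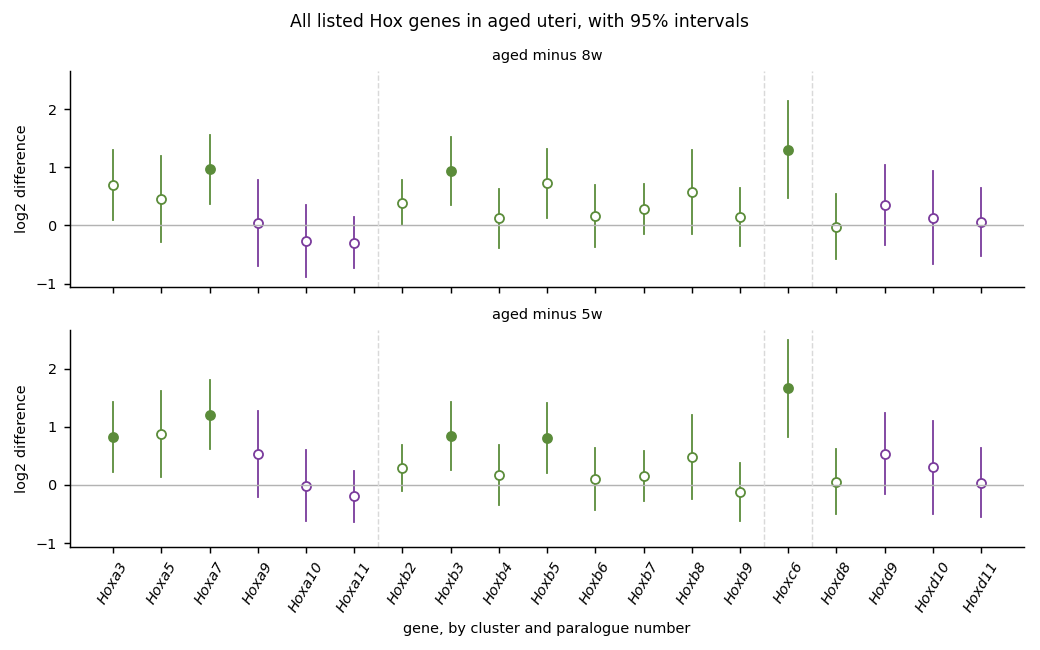
Difference of aged from 8-week uteri (top) and from 5-week uteri (bottom) in log2(CPM + 1) for all 19 listed Hox genes, ordered by cluster and paralogue number, with 95% intervals. Purple points are the 6 Hox genes followed here, green points the other 13, and filled points had an adjusted p under 0.05; 3 green points are filled at the top and 5 at the bottom, and no purple one.

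Polycomb and trithorax proteins keep Hox clusters silent or active, Polycomb complexes by modifying histones. Of 21 listed genes of this kind, 3 were higher and 2 lower in aged than in 8-week uteri (8.59% and 8.44% of all genes), with a median of -0.03. Against 5-week uteri 5 were higher and 2 lower (12.6% and 9.3% of all genes). Cbx7, a Polycomb subunit that reads methylated histones, had 22.3 to 126 CPM in aged uteri, against 8.35 to 15.8 CPM in 8-week and 6.47 to 20.2 CPM in 5-week uteri. Every aged library stood above every young one, as for 0.586% of all genes. The difference was 2.02 ± 0.31 from 8-week and 2.08 ± 0.31 from 5-week uteri (limma, adjusted p = 0.000336 and 0.000124).

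Ezh2, the Polycomb histone methyltransferase of dividing cells, had 9.96 to 27.7 CPM in aged, 16.5 to 88.0 CPM in 8-week and 20.5 to 52.7 CPM in 5-week uteri. It was lower in aged uteri by -1.32 ± 0.23 and -1.14 ± 0.23 (adjusted p = 0.00106 and 0.00213). Ezh1, its counterpart in resting cells, had 92.3 to 163 CPM in aged, 43.8 to 84.6 CPM in 8-week and 42.9 to 74.0 CPM in 5-week uteri, a difference of 0.94 ± 0.18 and 0.91 ± 0.18 (adjusted p = 0.00182 and 0.00178). Eed, a subunit shared by both enzymes, was lower by -0.62 ± 0.16 and -0.50 ± 0.16. Their levels in the later set alone differed from 8-week uteri by 1.83 for Cbx7, -1.11 for Ezh2, 0.84 for Ezh1 and -0.40 for Eed, of which Cbx7 was called. Leaving out single libraries ended none of these calls but that of Eed against 5-week uteri, which was lost without aged replicate 1 or 5w replicates 2, 4 or 7 (adjusted p up to 0.0886).

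**Figure D4:**
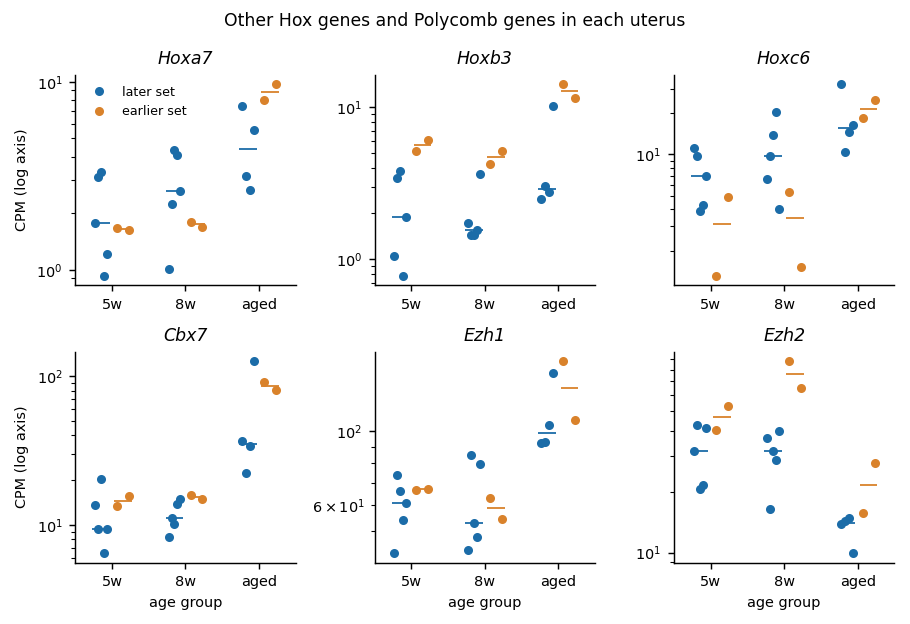
RNA level in CPM, on log axes, of 3 other Hox genes and 3 Polycomb genes in each uterus, by age group, with the later set (blue) left of the earlier set (orange) and short lines at the median. Cbx7 and Ezh1 in aged uteri lie above every young library, and Hoxa7, Hoxb3 and Hoxc6 overlap between the ages.

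The TALE family holds the other DNA-binding partners of Hox proteins. Of 9 listed besides Meis1, none was called between aged and 8-week uteri (17% of all genes). Meis3 alone was higher against 5-week uteri (0.87 ± 0.27, adjusted p = 0.0285, limma), and 1 of 9 is near the 12.6% of all genes. The Meis3 call was lost without aged replicate 1, 4 or 6 or 5w replicate 2, 6 or 7. Meis2 differed by 0.80 ± 0.34 and 0.68 ± 0.34 without a call (adjusted p = 0.115 and 0.160). Pbx3, a Pbx partner, differed by -0.41 ± 0.18 and -0.29 ± 0.18 (adjusted p = 0.116 and 0.255).

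Of 11 genes that studies of the uterus link to Hoxa10 or Hoxa11, 2 were lower in aged than in 8-week uteri and none was higher (8.44% and 8.59% of all genes). The median of the list was 0.01. Lif, the cytokine that mouse embryos need to implant, differed by -1.94 ± 0.58 (limma, adjusted p = 0.0264). It had 1.76 to 7.53 CPM in aged, 1.56 to 68.1 CPM in 8-week and 2.41 to 75.8 CPM in 5-week uteri, and the lowest young libraries overlapped with the aged ones. Ccnd3, a cyclin of decidual cells, had 68.6 to 95.8 CPM in aged and 85.1 to 187 CPM in 8-week uteri, a difference of -0.62 ± 0.16 (adjusted p = 0.0148). In the later set alone Ccnd3 was -0.37 (adjusted p = 0.363) and Lif -1.72 (adjusted p = 0.2996), neither called, and in the earlier set alone they were -1.15 (adjusted p = 0.0168) and -2.35 (adjusted p = 0.0241). Against 5-week uteri both were lower too, and Cdk6, the kinase partner of Ccnd3, was higher (0.78 ± 0.27, adjusted p = 0.0449). Over all genes 12.6% were higher and 9.3% lower in that comparison. The call of Lif against 8-week uteri was lost without aged replicate 1, 2 or 4 or 8w replicate 2, 3 or 5, and that of Cdk6 in 13 of 20 fits that left out 1 library (adjusted p up to 0.113). Itgb3, an integrin subunit that HOXA10 activates in human endometrium, was not called (-0.81 ± 0.46, adjusted p = 0.230).

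Of 14 listed genes of Müllerian duct and uterine development, 1 was higher and 1 lower in aged than in 8-week uteri, while 8.59% of all genes were higher and 8.44% lower, so both counts are near that background. Foxa2, the factor of uterine glands, was higher by 1.54 ± 0.40 and Wnt5a, a stromal Wnt ligand, lower by -0.81 ± 0.27 (limma, adjusted p = 0.0125 and 0.0466). The later set alone gave 2.20 for Foxa2 (adjusted p = 0.0177), and the earlier set alone gave 0.087 (adjusted p = 0.908). The test of that difference between sets gave 2.12 ± 0.75 and was not called (limma, adjusted p = 0.214). Wnt5a was -0.74 in the later set alone without a call and -1.004 in the earlier set (adjusted p = 0.0479). Against 5-week uteri both were called again, with Sox17, a factor of the uterine epithelium, also higher (1.12 ± 0.39, adjusted p = 0.0440). There 12.6% of all genes were higher and 9.3% lower. Leaving out 1 library ended the Wnt5a calls in 11 of 20 fits against 8-week and 6 of 20 against 5-week uteri, and that of Sox17 in 12 of 20. None of 4 listed steroid receptor genes was called in either comparison (17% and 21.9% of all genes). Against 8-week uteri Esr1, the estrogen receptor, was at 0.27 ± 0.21 and Pgr, the progesterone receptor, at -0.03 ± 0.44. The differences of the 4 genes ran from -0.03 to 0.47, with a median of 0.34.

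Marker genes of the cell types were called in small numbers between the ages, though some lists leaned up or down as a whole. Against 8-week uteri 9 of 10 smooth muscle, 7 of 7 endothelial and 5 of 5 mesothelial genes had positive differences (medians 0.33, 0.38 and 0.70). Of 5 immune genes 4 were positive (median 0.59), and 1 was called higher (8.59% of all genes). Negative ones were found for 7 of 11 epithelial and 6 of 10 stromal genes (medians -0.33 and -0.26). Over all genes 6989 of 12791 were positive, with a median of 0.05. The change in the later set minus that in the earlier set was negative for 10 of 10 smooth muscle and 7 of 7 endothelial genes. It was also negative for 5 of 5 mesothelial, 5 of 5 immune and 8 of 10 stromal genes. Their medians were -2.40, -1.28, -1.31, -0.94 and -0.65. It was positive for 11 of 11 epithelial genes (median 0.69). None of these was called, and the median over all genes was -0.01. Between aged and 8-week uteri 0 of 10 smooth muscle genes, 1 of 11 epithelial genes and 0 of 10 stromal genes were higher (8.59% of all genes), and 2 of 10 stromal genes, Col3a1 and Igf1, were lower (8.44% of all genes). Against 5-week uteri 2 of 10 smooth muscle genes and 1 of 11 epithelial genes were higher (12.6% of all genes), and 3 of 10 stromal genes were lower (9.3% of all genes). Of the genes of neighbouring organs, the 1 cervicovaginal gene listed was lower against 5-week uteri (-3.66), and 1 of 2 oviduct and 1 of 3 ovary genes were higher. Against 8-week uteri 1 of 3 ovary genes was higher and no cervicovaginal or oviduct gene was called. The part of neighbouring organs in the slices was not tested. Summed over the 10 smooth muscle genes, later aged uteri held 3113 to 27398 CPM, against 14441 to 20457 CPM in later 8-week uteri and 5191 to 15967 CPM in later 5-week uteri. Earlier aged uteri held 3934 and 18395 CPM of these, against 1770 and 2673 CPM in earlier 8-week uteri and 2433 and 7949 CPM in earlier 5-week uteri. Summed over the 11 epithelial genes, later aged uteri held 2014 to 6924 CPM, against 2290 to 6184 CPM in later 8-week uteri and 2649 to 4726 CPM in later 5-week uteri. Earlier aged uteri held 4858 and 4859 CPM of these, against 6629 and 9228 CPM in earlier 8-week uteri and 8010 and 8930 CPM in earlier 5-week uteri. In the earlier set Meis1 differed more from 8-week uteri. There both aged libraries stood above the 8-week ones in smooth muscle markers and below them in epithelial markers. With 2 libraries an age, 36.8% of all single genes also had both aged libraries above both 8-week ones. Against earlier 5-week uteri, where Meis1 was higher too, the smooth muscle sums overlapped and the epithelial sums were lower. The part of cell composition in the Meis1 difference was not tested.

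Between the sets of libraries more of these genes were called than between the ages. In the later set 5 of the 8 genes were higher and 2 lower than in the earlier set, while 58.7% of all genes were called, 20.5% higher and 38.3% lower. The median difference over all genes was -0.20, with 2619 called higher and 4893 lower, and 0.03 with TMM scaling, with 3915 higher and 3789 lower. The 7 calls kept their direction under TMM and quantile scaling, and Meis1 was not called under quantile scaling (-0.27, adjusted p = 0.186).

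Hoxa10 had 108 to 567 CPM (median 312) in the later set, against 46.7 to 101 CPM (median 86.3) in the earlier set. No library of either set crossed into the range of the other. The difference was 2.00 ± 0.26, a ratio of 3.99 with an interval from 2.74 to 5.81 (limma, adjusted p = 4.68e-06). Hoxa11 was likewise apart, with 59.2 to 127 CPM in the later and 22.4 to 53.9 CPM in the earlier set and a difference of 1.36 ± 0.18 (adjusted p = 6.98e-06). Every later library lay above every earlier one for these 2 of 8 genes, and for 3.68% of all genes.

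Hoxa9 differed by 1.70 ± 0.31 and Hoxd10 by 1.44 ± 0.34 (adjusted p = 0.000142 and 0.00123), with overlapping ranges. Hoxd9 differed by 0.74 ± 0.29 (adjusted p = 0.0366), and that call was lost without 5w replicate 2, 8w replicate 2, aged replicate 2 or aged replicate 6. Hoxd11 gave 0.10 ± 0.25 without a call. The genes beside the Hox genes went the other way. Emx2 had 30.0 to 150 CPM in the later and 112 to 174 CPM in the earlier set, a difference of -1.20 ± 0.24 (adjusted p = 0.000357). Meis1 had 27.6 to 101 CPM in the later and 60.6 to 186 CPM in the earlier set, a difference of -0.62 ± 0.20 (adjusted p = 0.0115). Of the 13 other Hox genes none was higher and 3 were lower in the later set (20.5% and 38.3% of all genes).

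Cell type markers moved with this split. Of 10 smooth muscle genes 6 were higher in the later set (20.5% of all genes), and of 11 epithelial genes 6 were lower (38.3% of all genes). Both of the 2 listed oviduct genes were higher and the 1 listed cervicovaginal gene was lower. Of 3 ovary genes 1 was higher and 1 lower. The summed smooth muscle level was 14441 to 20457 CPM in later and 1770 to 2673 CPM in earlier 8-week uteri, and the summed epithelial level 2290 to 6184 CPM and 6629 to 9228 CPM. At 5 weeks the smooth muscle sums overlapped, with 5191 to 15967 CPM in later and 2433 to 7949 CPM in earlier uteri. The epithelial sums there did not, with 2649 to 4726 CPM and 8010 to 8930 CPM. In aged uteri the sets overlapped in smooth muscle (3113 to 27398 and 3934 to 18395 CPM) and in epithelial sums (2014 to 6924 and 4858 to 4859 CPM). Their part in the split of the 8 genes was not tested. Of the later libraries, aged replicate 7 had the lowest smooth muscle sum, 3113 CPM, the highest epithelial sum, 6924 CPM, the lowest Hoxa10 level and the highest Emx2 level.

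Within the later set some of the Hox genes varied together, with an adjusted p under 0.05 for Pearson r in 7 of the 15 pairs of Hox genes. Over its 14 libraries all 28 pairs of the 8 genes were compared on log2(CPM + 1), with 100000 permutations and Benjamini-Hochberg adjustment over the 28. Age means were not taken off, and the share over all pairs of listed genes was not computed, so the count has no background beside it. Hoxa10 and Hoxd10, of different clusters, gave Pearson r = 0.86 (permutation p = 0.0001, adjusted 0.00196) and Spearman rho = 0.75 (permutation p = 0.00327, adjusted 0.0154). Without the 2 libraries farthest in Hoxa10 r was 0.83. Hoxa9 and Hoxd10 gave r = 0.86 (permutation p = 0.00014, adjusted 0.00196) and rho = 0.81 (permutation p = 0.00099, adjusted 0.00924), with r = 0.86 without the 2 farthest. Hoxa9 and Hoxa10, cluster neighbours, gave r = 0.79 (permutation p = 0.00147, adjusted 0.00823) and rho = 0.87 (permutation p = 0.00014, adjusted 0.00392). That r was 0.85 without the 2 farthest and 0.94 without aged replicate 7.

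Hoxa11 and its cluster neighbour Hoxa10 gave r = 0.52 (permutation p = 0.0509, adjusted 0.0892) and rho = 0.57 (permutation p = 0.0377, adjusted 0.0813), with r = 0.19 without the 2 farthest. Hoxa11 showed no detectable relation to Hoxa9 (r = 0.20, permutation p = 0.509, adjusted 0.637; rho = 0.30, permutation p = 0.303, adjusted 0.515). With Hoxd11 it gave r = 0.63 (permutation p = 0.0138, adjusted 0.0484) and rho = 0.71 (permutation p = 0.00556, adjusted 0.0204), with r = 0.72 without the 2 farthest. Emx2 and Meis1 gave r = 0.68 (permutation p = 0.01, adjusted 0.0402) and rho = 0.71 (permutation p = 0.00584, adjusted 0.0204), with r = 0.83 without the 2 farthest. Emx2 and Hoxa10 gave r = -0.54 (permutation p = 0.0492, adjusted 0.0892) and rho = -0.02 (permutation p = 0.939, adjusted 0.94). That r was -0.16 without the 2 farthest libraries and -0.11 without aged replicate 7, so it rests on those libraries. All pairs share their libraries, and with them any difference in tissue composition.

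**Figure D5:**
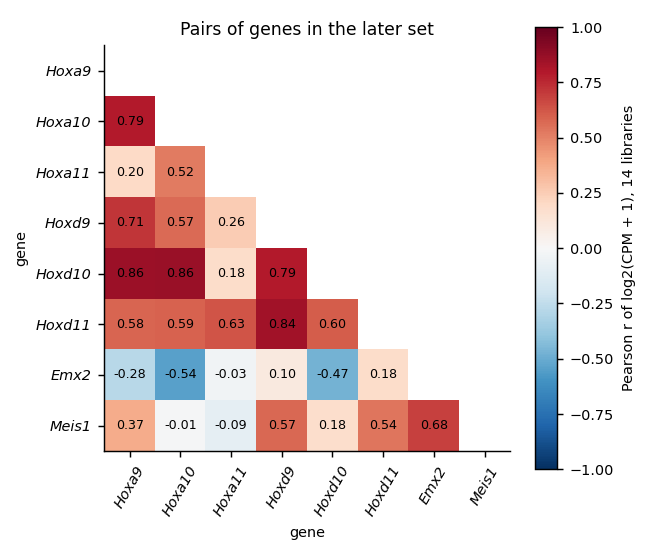
Pearson r of log2(CPM + 1) for the 28 pairs of the 8 genes over the 14 libraries of the later set, on a colour scale from -1 to 1. The values among Hoxa9, Hoxa10, Hoxd9 and Hoxd10 reach 0.86, and those of Emx2 with Hoxa10 and Hoxd10 are -0.54 and -0.47. Neither of these negative values had an adjusted p under 0.05, and without the 2 libraries farthest in the Hox gene they were -0.16 and 0.35.

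Other genes followed these levels across all 20 libraries after the mean of each set was taken off. Nearest to Hoxa10 were Plpp1 (r = 0.92), Tnnt3 (0.91) and Jam3 (0.91). Nearest to Hoxa11 were Hand2 (r = 0.82), a progesterone-regulated stromal factor, Fkbp1b (0.81) and Fmo1 (0.79). Nearest to Hoxd10 were Selenom (r = 0.94), Ccdc184 (0.94) and Cd300lb (0.93), and nearest to Hoxd9 Rtl8b (0.92), Tmem132c (0.90) and Glrb (0.89). Nearest to Emx2 were Ahdc1 (r = 0.97), Brd1 (0.97) and Agap3 (0.97), and to Meis1 Cep120 (0.97), Acox3 (0.96) and Kcnd3 (0.95). These are descriptions over 20 libraries that share depth and tissue composition, chosen from all listed genes for their likeness.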

How the data were processed

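RNA of whole mouse uteri was sequenced in 21 samples of 3 age groups, of which 20 had values. Reads were single (60 bp) or paired (150 bp), which was not assigned to libraries, per the labels' protocols. The authors deposited CPM, read counts of each gene divided by the library's total over the listed genes. The build is GRCm38, and the tools listed are fastp, featureCounts, STAR and edgeR, with no versions or roles, per the submitters' processing notes. Every value came out as a whole number of reads (within 0.01 of a read), which gave library totals of 12204573 to 30689439 reads. Aged replicate 3 has no column and was not analysed here.

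Column headers, which often name another sample than the file does, decided which sample a column belongs to. Differences were fitted to log2(CPM + 1) of all 12791 genes with limma 3.58.1 in R 4.3.3 (trend and robust moderation), with age group and set as terms, and p-values were adjusted over all genes by Benjamini-Hochberg, with calls at 0.05. The fit was also run on simulated reads, with a single spread for all genes and the same age change in both sets. That run does not show how the fit behaves where tissue composition varies or age changes differ by set. Fold changes are on the log2(CPM + 1) scale and understate those of low genes. Exon lengths and positions come from GENCODE release M21 for GRCm38, in which 12767 identifiers were found and 24 were not. Correlations used scipy 1.17.1 and numpy 2.4.6 in Python 3.11.15.

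All listed members are described. Of each other list up to 4 genes are named, those with the smallest adjusted p against 8-week uteri, or against 5-week uteri where none passed, and Hoxa3, Sox17 and Cdk6 were named after their values were seen. The members and the lists were chosen with earlier results of these data known. Motifs were searched in RefSeq promoter windows of GRCm38.p6. Alternatives changed the pseudocount, the filter, the scaling, the attachment of columns, the set term, the set used, the replicate block and each library in turn. Fits with voom weights, and in the later set without aged replicate 7, were chosen after seeing the data.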

Additional observations from a re-analysis of the deposited data

Results flagged for a closer look

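In 48 groups of 4 to 7 libraries, taken over both sets and within the later set, the highest or lowest library was checked against the rest, and 8 stood apart by Dixon's criterion. A rate of about 1 in 20 holds for separate groups with a normal spread. These groups overlap, and those over both sets pool libraries that differ by set, so the 8 cannot be weighed against that rate.

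In the later set aged replicate 7 had 108.5 CPM of Hoxa10, against 296.2 to 315.4 CPM in the other aged libraries of that set. It also had 149.8 CPM of Emx2, against 40.3 to 56.5 CPM. Its smooth muscle sum, 3113 CPM, was the lowest and its epithelial sum, 6924 CPM, the highest of the later set, and the part of these in its Hoxa10 and Emx2 levels was not tested. The sum of the 13 other Hox genes was 683 CPM in this library, the highest of all 20.

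At 5 weeks replicate 3 was the high library for all 3 Hoxd genes. It had 114.3 CPM of Hoxd9, against 18.3 to 43.4 CPM over both sets and 25.4 to 43.4 CPM within the later set. It had 122.2 CPM of Hoxd10, against 13.8 to 52.8 CPM, and 26.39 CPM of Hoxd11, against 5.66 to 13.2 CPM, over both sets. Its column lies in a table attached to an aged sample, and its age was not settled here.

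At 8 weeks replicate 6 had 104.5 CPM of Hoxd9, against 13.5 to 47.4 CPM over both sets and 34.6 to 47.4 CPM within the later set. It also had the highest Hoxa10 level of the 20 libraries, 567 CPM.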

How the results depend on the processing

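The number of called genes for aged against 8-week uteri, 2179, was 540 with columns attached by file, 950 without the set term, 180 in the later set alone, 3588 in the earlier set alone and 20 in the later set without aged replicate 7. It ran from 1285 to 2599 when each library was left out, and was 1285 without aged replicate 1, 1432 without 8w replicate 1 and 1348 without 8w replicate 2. Against 5-week uteri the count of 2799 was 1366 without the set term, 513 in the later set alone and 297 there without aged replicate 7, and 1965 to 3284 when each library was left out. Of the 8 genes, 0 were called against 8-week uteri with a pseudocount of 0.1 CPM, by file, without the set term, in the later set with or without aged replicate 7 and with the replicate block, and 0 to 1 when each library was left out. Against 5-week uteri 0 were called by file, without the set term and in the later set with or without aged replicate 7, and 0 to 2 when each library was left out. Between the sets 4 of 8 were called by file, in place of 7, and 6 to 7 when each library was left out. No gene was called between 8-week and 5-week uteri in any of these limma fits (135 at an unadjusted p under 0.05 with all libraries). The edgeR test that had been planned was not run.

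Signs reversed for differences of the 8 genes that were not called with all libraries. For Hoxa9 against 8-week uteri they were -0.082 with quantile scaling, -0.041 without the set term, -0.44 in the later set, -0.27 there without aged replicate 7 and -0.17 with voom weights. The earlier set alone gave 0.61 for Hoxa10 and 0.12 for Hoxa11 against 8-week uteri, 0.57 and 0.32 against 5-week uteri, and -0.16 for Hoxa9, -0.040 for Hoxa10, -0.20 for Hoxd10 and -0.48 for Meis1 between 8 and 5 weeks. The later set alone gave -0.13 for Hoxd10 and -0.12 for Hoxd11 against 8-week uteri, -0.023 for Hoxd11 against 5-week uteri, and 0.093 for Hoxd11 and -0.023 for Emx2 between 8 and 5 weeks. There, without aged replicate 7, they were -0.036 for Hoxd11 and -0.048 for Emx2 against 8-week uteri, and 0.082 for Hoxa10 and -0.071 for Emx2 against 5-week uteri. Scaling gave -0.10 (quantile) and -0.030 (voom) for Hoxd11 against 8-week uteri, 0.032 (quantile) for Hoxa10 and -0.041 (TMM), -0.16 (quantile) and -0.043 (voom) for Hoxd11 against 5-week uteri, and -0.050 (TMM), -0.014 (quantile) and -0.048 (voom) for Emx2 between 8 and 5 weeks. By file Hoxa10 was 0.17 against 5-week uteri and Hoxd11 0.071 between 8 and 5 weeks. The cause was not tested.

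When each library was left out, the differences from 8-week uteri ran from -0.18 to 0.20 for Hoxa9, -0.45 to 0.014 for Hoxa10, -0.052 to 0.43 for Hoxd10 and -0.11 to 0.18 for Hoxd11. Those from 5-week uteri ran from -0.13 to 0.28 for Hoxa10 and -0.11 to 0.23 for Hoxd11. Those between 8 and 5 weeks ran from -0.0063 to 0.25 for Hoxa11, -0.010 to 0.44 for Hoxd9, -0.032 to 0.42 for Hoxd10, -0.18 to 0.17 for Hoxd11, -0.13 to 0.18 for Emx2 and -0.082 to 0.18 for Meis1, and that between sets from -0.087 to 0.19 for Hoxd11. Same-numbered libraries of different ages correlated in their deviations from -0.51 to 0.28 in the later and -0.15 to 0.27 in the earlier set. With 2 libraries an age, values of the earlier set can differ only in sign between same and other numbers, so they cannot decide on pairing. In the later set the highest value, 0.79, was that of 5w replicate 3 with 8w replicate 6. Same-numbered libraries were thus not the most alike there, and pairing by number was not settled. With the replicate block 1602 genes were called against 8-week and 2398 against 5-week uteri, Meis1 was 0.69 (adjusted p = 0.0831) and 0.77 (adjusted p = 0.0462), and Hoxa10 was 0.063 against 5-week uteri. The intervals of the 7 genes not called limit what a missing call says, and the earlier set holds 2 libraries an age.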
